A study of Homo sapiens with 8 samples.

Results

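The genes described here are those of the Wnt pathway from the secreted signal to its nuclear factors and feedback inhibitors, measured in 2 human neuroblastoma cell lines. They were chosen by symbol: the numbered WNT ligands, the numbered FZD receptors, DKK1 to DKK4, the SFRP genes, RSPO1 to RSPO4, WIF1, LRP5, LRP6, APCDD1, APCDD1L, LEF1, TCF7, TCF7L1, TCF7L2, AXIN1, AXIN2, NKD1, NKD2, RNF43 and ZNRF3. The rule found 56 genes of 31426 on the array, represented by 80 of 47322 probes, and where a gene had several probes, the one with the brightest mean over the 8 arrays stands for it. The 56 comprise 19 ligands, 12 receptors and coreceptors, 4 R-spondins, 11 extracellular or membrane antagonists, 4 TCF/LEF factors and 6 intracellular scaffolds or feedback inhibitors.

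Gene expression was profiled on 8 Illumina HumanHT-12 v4 arrays. SH-SY5Y cells (neuroblastic) and SH-EP2 cells (epithelial-like) carried either a scrambled shRNA (control) or an shRNA against TRPM7, a cation channel with a kinase domain, and each of the 4 groups had 2 arrays. All cells, controls included, were lentivirally transduced, and the same single TRPM7 shRNA sequence was used in both lines. The methods give different culture media for the lines, and state that samples were made and run in duplicate from cultured cells without saying whether the cultures were separate, so p-values measure the spread between arrays, which may be technical.

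Wnt proteins are secreted lipid-modified ligands that bind Frizzled receptors together with the coreceptors LRP5 or LRP6. In the canonical branch this stabilises beta-catenin, which enters the nucleus and acts with TCF/LEF factors. AXIN2, DKK1, NKD1, RNF43 and ZNRF3 are textbook targets that in turn restrain the signal, and Wnt signalling is known for inducing the neural crest, the tissue from which neuroblastoma arises.

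A probe counted as detected on an array at a detection p under 0.05, and 40.8% to 44.2% of all probes were detected per array. The single TRPM7 probe was detected on 0 of 8 arrays (detection p between 0.0753 and 0.201), with log2 signals of 2.81 and 3.02 on SH-SY5Y control, 2.70 and 2.63 on SH-SY5Y TRPM7 shRNA, 2.47 and 2.80 on SH-EP2 control, and 2.65 and 2.46 on SH-EP2 TRPM7 shRNA arrays. The arrays therefore do not check the knockdown. For it the paper refers to a supplementary figure, and its methods describe quantitative RT-PCR of TRPM7 in both lines. The paper also repeated the SH-EP2 migration experiments with another TRPM7 shRNA. Marker genes of the 2 neuroblastoma cell states were compared between the control cells at an adjusted p under 0.05 by limma. Of the 10 noradrenergic genes, 9 were lower in SH-EP2 than in SH-SY5Y, and TH was detected on 0 of 8 arrays. Of the 10 mesenchymal genes, 8 were higher in SH-EP2 control cells, and VIM and TWIST1 were lower.

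For LEF1 and DKK1 the bases before their RefSeq start sites (GRCh38.p14) are shown, LEF1 because its response to the shRNA differed between the lines and DKK1 because its window holds matches to the motif that TCF/LEF factors bind. Capitals mark matches on either strand to CTTTGAA, to its close relative CTTTGAT, to the further variant CTTTGTA and finally to the variant CTTTGTT, and both sequences are written 5′ to 3′ on the gene's strand. The LEF1 stretch is chr4:108166302-108166551, minus strand, and the DKK1 stretch is chr10:52314031-52314280, plus strand.
LEF1: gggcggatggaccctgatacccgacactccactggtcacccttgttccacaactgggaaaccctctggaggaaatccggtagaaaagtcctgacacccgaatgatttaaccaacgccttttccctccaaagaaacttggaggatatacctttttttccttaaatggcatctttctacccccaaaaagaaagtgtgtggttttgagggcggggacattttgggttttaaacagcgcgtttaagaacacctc
DKK1: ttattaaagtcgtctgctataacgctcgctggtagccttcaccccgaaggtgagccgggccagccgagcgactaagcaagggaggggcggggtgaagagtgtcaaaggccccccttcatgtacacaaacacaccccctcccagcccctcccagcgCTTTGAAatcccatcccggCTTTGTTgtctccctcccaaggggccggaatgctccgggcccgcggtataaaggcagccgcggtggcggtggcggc

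The DKK1 window held 2 matches, CTTTGAA at 95 to 89 and CTTTGTT at 76 to 70 bases before the start, and the LEF1 window held 0. RefSeq start sites were found for 38 of the 56 genes, with 45 windows of 250 bases among them, of which 3 (DKK1, TCF7 and TCF7L2) held a match, or 6.67%. Of all 35116 windows of the table, 11.96% held one. CAGGTG, the E-box that SNAIL family factors bind, matched in 9 of the 45 windows, among them those of WNT5A, AXIN1 and NKD2, and in 17.5% of all windows, and it matched neither sequence above. These matches describe the letters only.

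Of the 56 genes, 16 were detected on all 8 arrays, 16 on none, 12 on 1 array and 12 on 2 to 7. The 16 detected throughout were WNT3, WNT5B, FZD1, FZD2, FZD3, FZD4, FZD6, FZD7, FZD9, LRP5, DKK1, DKK3, SFRP1, AXIN1, AXIN2 and ZNRF3. The 16 detected nowhere were WNT1, WNT2, WNT2B, WNT3A, WNT8B, WNT10A, WNT11, WNT16, RSPO1, RSPO3, RSPO4, DKK4, SFRP2, SFRP5, NKD1 and RNF43. Single detections came from WNT6, WNT7A, WNT7B, WNT9A, WNT9B, FZD5, FZD10, RSPO2, APCDD1, SFRP4, WIF1 and TCF7, and 28 genes were detected on both arrays of at least 1 group. A probe that is not detected gives a bound on its signal and does not show that the gene is silent.

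**Figure D1:**
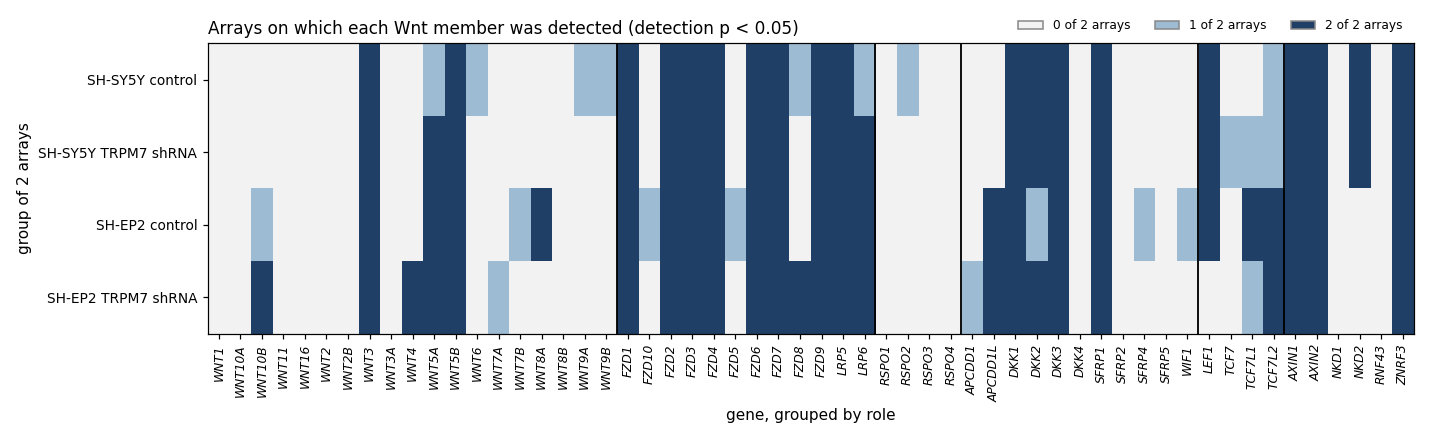
The 56 Wnt pathway genes (columns, grouped by role: ligands, receptors and coreceptors, R-spondins, antagonists, TCF/LEF factors, intracellular inhibitors) and the 4 groups (rows), coloured by the number of the 2 arrays on which the gene's probe was detected at a detection p under 0.05. Of the 12 receptors and coreceptors 10 were detected on both arrays of at least 1 group, and of the 4 R-spondins 3 were detected on no array.

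The comparison of the control cells asks how the 2 lines differed when both carried the control shRNA. SH-EP2 control cells had higher signals of WNT5A, WNT5B, WNT3, FZD2, FZD6, TCF7L2, DKK3 and APCDD1L, and SH-SY5Y control cells had higher signals of DKK1, DKK2, SFRP1, LEF1, AXIN2, NKD2 and FZD9. In all, 20 of the 56 genes passed an adjusted p of 0.05 (limma, Benjamini-Hochberg over all 47322 probes), 11 of them higher in SH-EP2 and 9 higher in SH-SY5Y. By the same test 30.1% of all 31426 genes passed, 14.2% higher in SH-EP2 and 15.9% higher in SH-SY5Y, so that the Wnt genes' 35.7% lay near the background. The median log2 difference, SH-EP2 minus SH-SY5Y, was 0.09 over the Wnt genes and -0.02 over all genes. The line and its medium cannot be told apart, and as these are bulk samples, fewer cells with a transcript and less transcript per cell cannot be told apart either. The sizes depend on the background correction: without it the log2 differences were smaller (2.79 for APCDD1L and -1.80 for DKK2, for example), and all 20 genes still passed in the same direction.

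Among the ligands, those that differed were all higher in SH-EP2 control cells (4 of 19). WNT5B, a ligand that acts mainly without beta-catenin, had log2 signals of 3.72 and 3.65 on the SH-SY5Y control arrays and of 7.65 and 7.72 on the SH-EP2 control arrays. This was a 16.04-fold difference (log2 4.004 ± 0.24 SE, adjusted p = 5.12e-11). Its relative WNT5A had 3.60 and 3.22 in SH-SY5Y, where 1 of 2 arrays detected it, and 7.12 and 7.44 in SH-EP2, a fitted log2 difference of 3.87 ± 0.27 SE (adjusted p = 4.28e-10). Both ligands thus stood well apart between the lines, with a gap many times the spread of the duplicates. WNT3, a canonical ligand, had 6.29 and 6.67 in SH-SY5Y and 7.41 and 7.42 in SH-EP2, which was 1.91-fold higher in SH-EP2 (adjusted p = 0.000217). WNT10B was detected on 1 SH-EP2 control array only and was at least 1.48-fold higher there (adjusted p = 0.0427), a call that 11 of 19 alternatives did not keep, with a log2 difference of 0.85 in place of 1.39 without SH-EP2 control replicate 2.

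Frizzled receptors differed in both directions. FZD6 had log2 signals of 5.48 and 5.49 in SH-SY5Y and of 7.65 and 7.80 in SH-EP2 control cells, 4.73-fold higher in SH-EP2 (adjusted p = 2.8e-08). FZD2 had 8.67 and 8.60 against 10.37 and 10.33, 3.28-fold higher in SH-EP2 (adjusted p = 1.38e-11). In the opposite direction, FZD9 had 7.23 and 7.17 in SH-SY5Y and 5.49 and 5.25 in SH-EP2, 3.56-fold higher in SH-SY5Y (adjusted p = 1.27e-07). The duplicates of these 3 receptors agreed far more closely than the lines did. FZD4 was 1.67-fold higher in SH-SY5Y (adjusted p = 0.00626). FZD1 was 1.60-fold higher in SH-EP2 (adjusted p = 0.0394) but had overlapping signals in the TRPM7 shRNA cells, where its log2 difference was -0.046. Without SH-EP2 control replicate 2 the log2 difference between the controls was 0.40 in place of 0.68. A second FZD1 probe, detected on all 8 arrays, was 4.69-fold higher in SH-EP2 control cells (log2 2.23, adjusted p = 4.1e-05 by limma). On TRPM7 shRNA arrays this probe had 3.92 and 3.13 in SH-SY5Y against 5.03 and 5.07 in SH-EP2, without overlap. LRP5, which falls outside the naming rule and is named after its values were seen, was 1.57-fold higher in SH-EP2 (adjusted p = 0.000252).

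Extracellular antagonists showed the widest differences between the lines. DKK2, a secreted protein of the Dickkopf family that binds LRP5 and LRP6, had log2 signals of 8.18 and 8.20 in SH-SY5Y control cells and of 3.41 and 2.35 in SH-EP2 control cells, where 1 of 2 arrays detected it. The fitted log2 difference, SH-EP2 minus SH-SY5Y, was -5.31 ± 0.30 SE (adjusted p = 1.35e-11), which is no measured size because the SH-EP2 mean lay below the lowest detected signals. A second DKK2 probe, detected on all 8 arrays, was 11.8-fold higher in SH-SY5Y (log2 -3.56). SFRP1, a secreted Frizzled-related protein that binds Wnt ligands, had 9.60 and 9.66 in SH-SY5Y and 5.54 and 5.52 in SH-EP2, 17.2-fold higher in SH-SY5Y (adjusted p = 1.29e-15). DKK1, the Dickkopf inhibitor whose promoter stretch is shown above, had 12.65 and 12.60 in SH-SY5Y and 9.67 and 10.07 in SH-EP2, 6.74-fold higher in SH-SY5Y (adjusted p = 1.3e-14). For all 3 the lines did not overlap, and the second probe of DKK1 moved the same way (fitted log2 -4.55). That probe was detected on 1 of 2 SH-EP2 control arrays.

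The remaining antagonists that differed were higher in SH-EP2. DKK3, the divergent Dickkopf protein, had log2 signals of 10.68 and 10.63 in SH-SY5Y and 13.04 and 13.01 in SH-EP2, a 5.16-fold difference (adjusted p = 7.24e-16) with a log2 difference of 1.99 and 2.06 on 2 of its other probes and of 0.32 on the last, which 1 of 8 arrays detected. APCDD1L, a relative of the membrane-bound Wnt inhibitor APCDD1, was detected on 0 of 4 SH-SY5Y arrays and on all 4 SH-EP2 arrays. Its log2 signals were 1.42 and 1.53 in SH-SY5Y and 9.17 and 9.14 in SH-EP2 control cells, at least 64.0-fold higher in SH-EP2 (adjusted p = 1.85e-15).

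The lines also differed in nuclear factors and intracellular inhibitors. LEF1 had log2 signals of 6.68 and 6.93 in SH-SY5Y control and 5.04 and 4.68 in SH-EP2 control cells, 3.85-fold higher in SH-SY5Y (log2 -1.95 ± 0.25 SE, adjusted p = 2.81e-06). TCF7L2, another factor of this family, had 3.13 and 2.74, where 1 of 2 arrays detected it, against 4.75 and 4.95 and was higher in SH-EP2 (fitted log2 1.91, adjusted p = 0.000552). AXIN2, a scaffold of the complex that degrades beta-catenin and a canonical target, had 7.34 and 7.47 in SH-SY5Y and 4.79 and 4.40 in SH-EP2, 7.01-fold higher in SH-SY5Y (adjusted p = 3.32e-09). NKD2, which binds Dishevelled, was detected in SH-SY5Y only and was at least 2.32-fold higher there (adjusted p = 0.000125). AXIN1, the constitutive scaffold, was 1.39-fold higher in SH-SY5Y (adjusted p = 0.00812), a call that 5 of 19 alternatives did not keep.

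**Figure D2:**
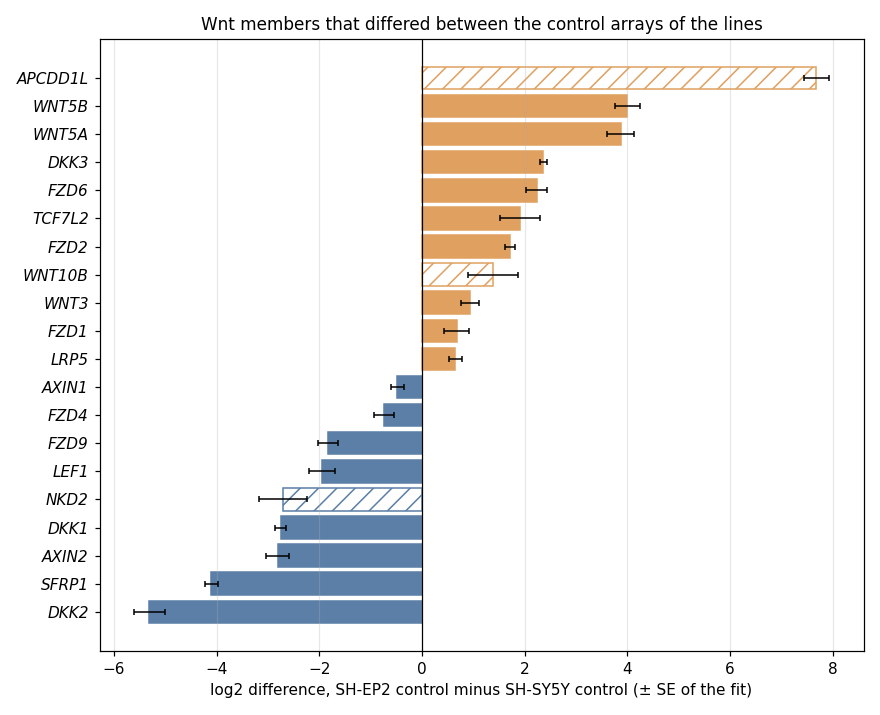
Log2 difference, SH-EP2 control minus SH-SY5Y control, of the 20 Wnt genes past an adjusted p of 0.05, with the SE of the fit over all 8 arrays. Hatched bars are genes that were undetected in the dimmer line, for which the fitted value is no measured size. DKK2, TCF7L2 and WNT5A were detected on 1 of 2 arrays of the dimmer line, and the antagonists APCDD1L and DKK2 lie at opposite ends.

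TRPM7 shRNA was compared with control within each line to ask which genes moved when TRPM7 was targeted. In SH-SY5Y cells DKK2 fell and no other detected Wnt gene passed the test. DKK2 had log2 signals of 8.18 and 8.20 on control and of 6.43 and 6.87 on TRPM7 shRNA arrays, 2.91-fold lower with the shRNA (log2 -1.54 ± 0.30 SE, adjusted p = 0.00552). The groups did not overlap, and a second DKK2 probe fell too (log2 -1.40, adjusted p = 0.00245). The call of the first probe was lost without SH-SY5Y control replicate 2 (adjusted p = 0.0750) or without TRPM7 shRNA replicate 1 (adjusted p = 0.110), and in limma without an intensity trend (adjusted p = 0.295) or per probe without eBayes (adjusted p = 0.401), and its log2 difference was -0.92 without background correction.

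In SH-SY5Y, 2 of the 56 genes passed (1 higher, 1 lower), or 3.57% beside 2.57% of all genes (0.999% higher and 1.57% lower), and the median log2 difference was -0.02 beside 0.00 over all genes. The other of the 2, APCDD1L, had log2 signals of 1.42 and 1.53 on control and of 2.40 and 2.75 on TRPM7 shRNA arrays (log2 1.09, adjusted p = 0.0191), but it was detected on none of these 4 arrays and has no fold. LEF1 had 6.68 and 6.93 on control and 7.45 and 7.51 on TRPM7 shRNA arrays. These did not overlap, and the log2 difference of 0.68 ± 0.25 SE did not pass (adjusted p = 0.246), although it passed in 3 of 20 alternatives. A second LEF1 probe also rose without overlap and did not pass (log2 0.75, adjusted p = 0.318 by limma). WNT1 was detected on no array, with log2 signals of 2.42 and 2.77 on control and 1.22 and 1.87 on TRPM7 shRNA arrays and an adjusted p of 0.213. The count of 2 became 1 when either array of SH-EP2 control or of SH-EP2 TRPM7 shRNA, SH-SY5Y control replicate 2 or SH-SY5Y TRPM7 shRNA replicate 1 was left out.

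In the same SH-SY5Y comparison 2 of 10 markers in each list passed an adjusted p of 0.05 by limma, all of them lower. These were the noradrenergic markers DBH and ISL1 and the mesenchymal markers VIM and SNAI2. No marker passed as higher, and the mesenchymal marker COL3A1 came nearest (log2 0.30 without overlap, adjusted p = 0.0503). Of all genes 1.57% were called lower and 0.999% higher. The summed linear signal of the 10 noradrenergic genes lay between 24998 and 26329 on control and between 18660 and 19943 on TRPM7 shRNA arrays. For the 10 mesenchymal genes it lay between 18029 and 19487 on control and between 16735 and 16822 on TRPM7 shRNA arrays. The part of these shifts in the DKK2 result was not tested.

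In SH-EP2 cells more Wnt genes passed. DKK2, SFRP1 and WNT4 rose with TRPM7 shRNA, and LEF1, APCDD1L, WNT5B, FZD7 and DKK3 fell. These 8 genes (3 higher, 5 lower) are 14.3% of the 56, beside 3.67% of all genes (1.82% higher and 1.85% lower), and no test of the list as a whole was made. The median log2 difference was -0.16 over the Wnt genes and 0.01 over all genes. DKK2, LEF1 and SFRP1 stayed past the threshold with every single array left out, but only LEF1 passed in limma without an intensity trend and only SFRP1 in the per-probe test without eBayes. The count was 3 without SH-EP2 control replicate 1 or without either SH-EP2 TRPM7 shRNA array, and 5 without SH-EP2 control replicate 2.

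DKK2 had log2 signals of 3.41 and 2.35 on SH-EP2 control arrays and of 5.09 and 5.69 on TRPM7 shRNA arrays. It was higher with the shRNA (fitted log2 2.51 ± 0.30 SE, adjusted p = 2.92e-05), and its second probe, detected on all 8 arrays, was 2.40-fold higher (log2 1.27, adjusted p = 0.00471). Of the control arrays 1 of 2 detected the first probe, so its fitted value is no measured size, and it moved with the background correction: the log2 difference was 1.27 with neqc (normexp with the background inferred from the detection p-values, offset 16) and 0.42 without correction, both past the threshold. SFRP1 had 5.54 and 5.52 on control and 6.27 and 6.40 on TRPM7 shRNA arrays, 1.75-fold higher with the shRNA (log2 0.81 ± 0.13 SE, adjusted p = 0.000702), and 0.28 without correction. With the shRNA both antagonists remained below their SH-SY5Y signals, which for SFRP1 were 9.84 and 9.83 and for DKK2 were 6.43 and 6.87 on the TRPM7 shRNA arrays.

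LEF1 moved the opposite way. Its log2 signals were 5.04 and 4.68 on SH-EP2 control arrays, both detected, and 2.49 and 2.96 on TRPM7 shRNA arrays, neither detected, which was at least 3.21-fold lower with the shRNA (fitted log2 -2.13 ± 0.25 SE, adjusted p = 2.77e-05). A second LEF1 probe was also detected on both control arrays and on no TRPM7 shRNA array (log2 -1.31, adjusted p = 0.0187). Without background correction the first probe's log2 difference was -0.31 (adjusted p = 0.0118).

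Of the ligands, WNT5B had log2 signals of 7.65 and 7.72 on SH-EP2 control and of 6.63 and 6.87 on TRPM7 shRNA arrays, 1.92-fold lower with the shRNA (log2 -0.94 ± 0.24 SE, adjusted p = 0.0389). Its second probe was detected on no array. WNT5A had 7.12 and 7.44 against 6.41 and 6.82, which did not overlap and did not pass (log2 -0.67 ± 0.27 SE, adjusted p = 0.271), although it passed without background correction and with normexp at an offset of 50. WNT4, a ligand known from kidney and gonad development, was detected on both TRPM7 shRNA arrays (3.36 and 3.38) and on no control array (2.02 and 2.16). It was at least 1.10-fold higher (adjusted p = 0.0481), and 16 of 18 alternatives did not keep the call.

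Among receptors and antagonists, 3 genes fell. The receptor FZD7 had log2 signals of 7.50 and 7.59 on SH-EP2 control and of 6.93 and 7.01 on TRPM7 shRNA arrays, 1.49-fold lower with the shRNA (adjusted p = 0.0389), while its second probe gave a log2 difference of -0.32 that did not pass (adjusted p = 0.686). APCDD1L had 9.17 and 9.14 against 8.16 and 8.04, 2.08-fold lower (adjusted p = 0.0187). DKK3 had 13.04 and 13.01 against 12.65 and 12.63, 1.30-fold lower (adjusted p = 0.00309), with a second bright probe at a log2 of -0.31 (adjusted p = 0.0652). The groups did not overlap for these 3 genes. Without background correction FZD7 was at -0.33 and WNT5B at -0.53, both past the threshold. The calls of FZD7, APCDD1L and WNT5B were lost with any 1 of the 4 SH-EP2 arrays left out, and that of DKK3 with any of them but control replicate 2.

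**Figure D3:**
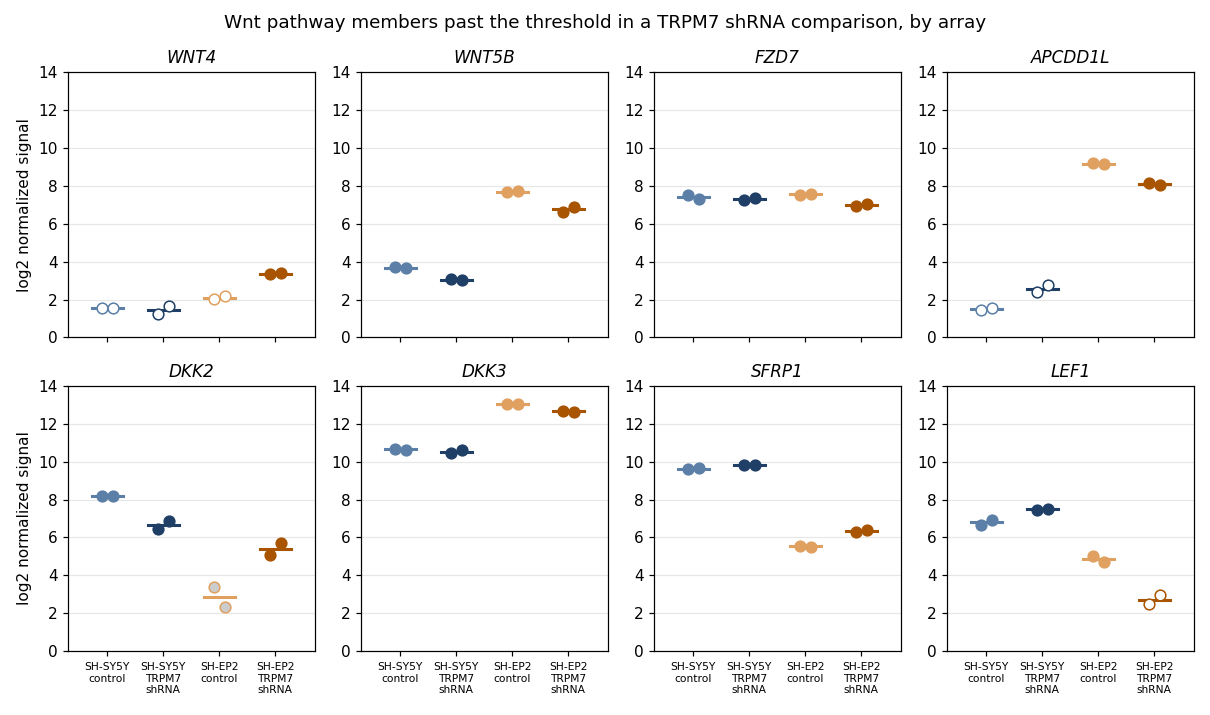
Log2 normalized signal (y axis) on each of the 8 arrays for the 8 Wnt genes past an adjusted p of 0.05 in a TRPM7 shRNA comparison, with a line at each group's mean of 2 arrays. Filled points are groups detected on both arrays, grey points groups detected on 1, and open points groups detected on none, and DKK2 fell in SH-SY5Y and rose in SH-EP2.

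In the SH-EP2 comparison 5 of the 10 mesenchymal markers passed an adjusted p of 0.05 by limma. TWIST1, SNAI2, COL1A1 and THY1 were lower and CD44 was higher. Of the 10 noradrenergic markers 3 passed, GATA2 and CHGA lower and CHGB higher, CHGA being detected on 0 of 4 SH-EP2 arrays. Of all genes 1.85% were called lower and 1.82% higher. The summed linear signal of the 10 mesenchymal genes lay between 35888 and 36765 on control and between 34736 and 34953 on TRPM7 shRNA arrays. For the 10 noradrenergic genes it lay between 353 and 365 on control and between 345 and 407 on TRPM7 shRNA arrays, with DBH detected on no SH-EP2 array. The median log2 difference of the mesenchymal list was -0.05, beside 0.01 over all genes. The part of these marker changes in the Wnt results was not tested.

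The difference of the shRNA effect between the lines was tested as an interaction. It passed for DKK2, LEF1 and APCDD1L, which is 3 of 56 genes or 5.36%, beside 1.78% of all genes. For DKK2 the log2 effect in SH-SY5Y minus that in SH-EP2 was -4.05 ± 0.42 SE (adjusted p = 9.88e-06), and its second probe gave -2.67 (adjusted p = 0.000164). For LEF1 it was 2.81 ± 0.35 SE (adjusted p = 0.000107), with 2.06 (adjusted p = 0.0146) on the second probe. For APCDD1L it was 2.15 ± 0.35 SE (adjusted p = 0.00140), of which the SH-SY5Y part comes from undetected signals. These 3 calls held with each single array left out and, at smaller log2 sizes of -1.34, 0.68 and 1.02, without background correction. All 3 were lost in limma without an intensity trend and in the per-probe test without eBayes, where the highest adjusted p-values were 0.228 for DKK2, 0.148 for LEF1 and 0.121 for APCDD1L. The interaction of SFRP1 was -0.61 (adjusted p = 0.135), and those of WNT5B, FZD7, DKK3 and WNT4 had adjusted p-values of 0.846, 0.432, 0.353 and 0.254, so a difference of their effects between the lines was not shown.

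In control cells DKK2 differed more between the lines than in TRPM7 shRNA cells. The fitted log2 difference between the lines was -5.31 on control arrays, which is no measured size. On TRPM7 shRNA arrays DKK2 had 6.43 and 6.87 in SH-SY5Y against 5.09 and 5.69 in SH-EP2. The second DKK2 probe, detected on all 8 arrays, had a log2 difference of -3.56 on control arrays. Its TRPM7 shRNA means were 5.86 in SH-SY5Y and 4.97 in SH-EP2. For LEF1 the lines differed more, by a log2 of -1.95 on control arrays and of -4.75 on TRPM7 shRNA arrays, where SH-EP2 signals were undetected. The comparisons within a line and the comparison of the controls share control arrays. These differences between the lines restate the interactions of DKK2 and LEF1 and are no further result.

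**Figure D4:**
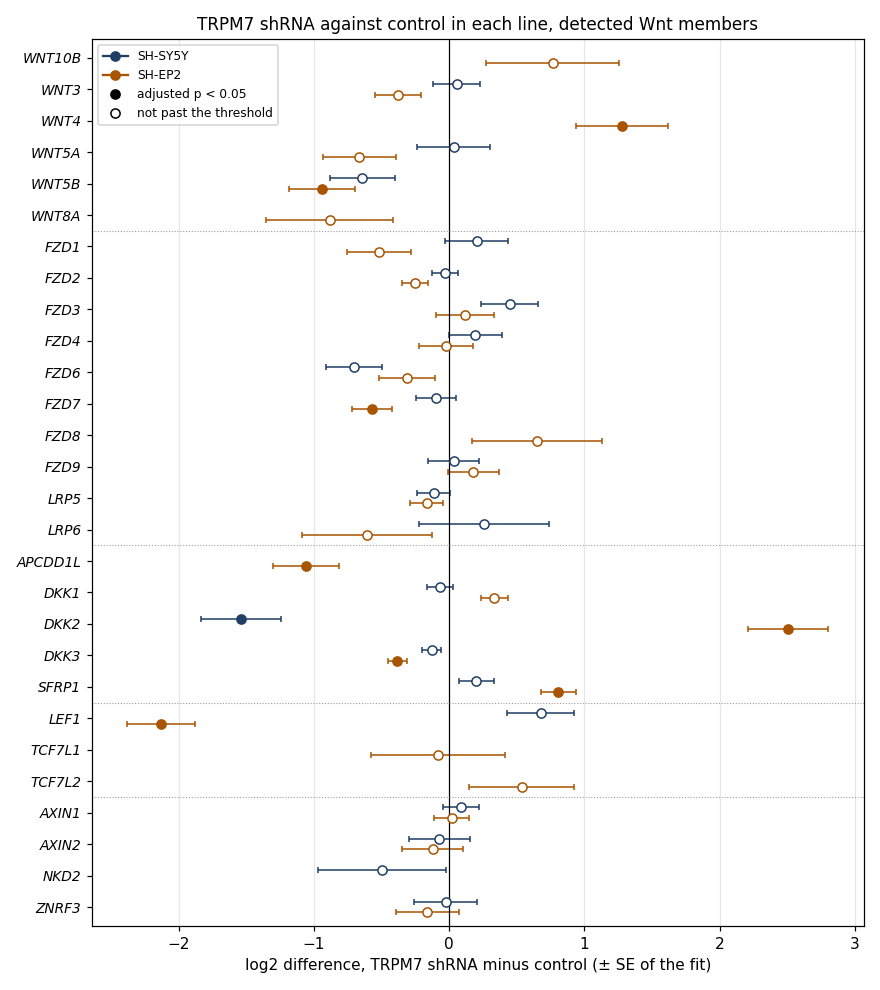
Log2 difference, TRPM7 shRNA minus control, with the SE of the fit, in SH-SY5Y (blue) and SH-EP2 (orange) for the 28 Wnt genes detected on both arrays of at least 1 group, each line shown where 1 of its groups was detected on both arrays. Filled points passed an adjusted p of 0.05, and DKK2 and LEF1 lie on opposite sides of 0 in the lines, although LEF1 did not pass in SH-SY5Y.

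Canonical feedback genes among the members did not pass in either line. For NKD1 and RNF43, which were detected on no array, no change could be measured. AXIN2 had log2 signals of 7.34 and 7.47 on SH-SY5Y control and 7.24 and 7.42 on TRPM7 shRNA arrays, and 4.79 and 4.40 against 4.24 and 4.71 in SH-EP2. The groups overlapped in both lines, with log2 differences of -0.07 ± 0.22 SE and -0.12 ± 0.22 SE. ZNRF3, a ubiquitin ligase that removes Frizzled receptors, had log2 differences of -0.02 ± 0.23 SE and -0.16 ± 0.23 SE. DKK1 had 12.65 and 12.60 against 12.61 and 12.50 in SH-SY5Y, and 9.67 and 10.07 against 10.20 and 10.20 in SH-EP2. In SH-EP2 its log2 difference of 0.33, without overlap, did not pass (adjusted p = 0.0869 by limma). A second DKK1 probe lay the other way at -0.86 with overlapping groups (adjusted p = 0.347). That probe was detected on 1 of 2 SH-EP2 control and 0 of 2 SH-EP2 TRPM7 shRNA arrays, so its value is no measured size.

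Other genes of the pathway were taken from 4 lists. Of 16 genes of Wnt secretion and cell surface binding, 2 rose in SH-SY5Y, the glypicans GPC3 and GPC4, proteoglycans that bind Wnt ligands, and 1 rose in SH-EP2, GPR177 (WLS), the carrier that brings Wnt ligands to the cell surface. Beside these and the list counts that follow stand 2.57% of all genes called in SH-SY5Y (0.999% higher, 1.57% lower) and 3.67% in SH-EP2 (1.82% higher, 1.85% lower). GPC3 had log2 signals of 7.20 and 7.26 on SH-SY5Y control and of 9.64 and 9.81 on TRPM7 shRNA arrays, a 5.65-fold rise (adjusted p = 4.99e-05), and its effect differed between the lines (interaction 3.43, adjusted p = 0.000115), of which the SH-EP2 part rests on signals detected on 1 of 4 arrays. GPC4 had 4.89 and 3.27 against 5.58 and 5.51 (log2 1.47, adjusted p = 0.0150), and its interaction was 2.53 (adjusted p = 0.00333). GPR177 had 9.39 and 9.51 on SH-EP2 control and 9.98 and 9.83 on TRPM7 shRNA arrays, 1.38-fold higher (adjusted p = 0.0112). The median log2 difference of this list was 0.28 in SH-SY5Y and -0.13 in SH-EP2.

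Of 35 genes that carry the beta-catenin signal inside the cell, 1 fell in SH-SY5Y, and 2 rose and 1 fell in SH-EP2, where 3.67% of all genes were called. The 1 of 35 lies near the 2.57% of all genes called in SH-SY5Y. The SH-SY5Y gene was DACT3, which binds Dishevelled (log2 -0.61, adjusted p = 0.0200). In SH-EP2, NLK, a kinase that acts on TCF/LEF factors, had log2 signals of 3.61 and 2.67 on control arrays, 1 of which detected it, and 4.88 and 4.50 on TRPM7 shRNA arrays (fitted log2 1.55, adjusted p = 0.00954). The corepressor TLE4 was 1.59-fold higher (adjusted p = 0.000945) and its relative TLE2 was 3.19-fold lower (adjusted p = 0.00355), so that these partners of TCF/LEF factors moved in opposite directions. The median log2 difference of the 35 was 0.08 in SH-SY5Y and 0.10 in SH-EP2. Of 25 genes of planar cell polarity and Wnt/calcium signalling, 0 passed in either line by limma, with medians of 0.01 and -0.18. At an unadjusted p under 0.05 there were 5 in SH-SY5Y and 6 in SH-EP2. The share of all genes at that unadjusted threshold was not computed, so these 2 counts have no background to stand beside.

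Of 30 genes described as beta-catenin targets in other tissues, 1 rose and 2 fell in SH-SY5Y, and 5 rose and 1 fell in SH-EP2, beside 2.57% and 3.67% of all genes called, with medians of 0.05 and 0.18. TNFRSF19, a receptor of the tumour necrosis factor family, had log2 signals of 6.95 and 6.87 on SH-SY5Y control and 7.59 and 7.64 on TRPM7 shRNA arrays, 1.63-fold higher (adjusted p = 0.000678), and of 10.94 and 11.12 on SH-EP2 control against 9.86 and 9.83 on TRPM7 shRNA arrays, 2.28-fold lower (adjusted p = 1.3e-06). CCND1, the cell cycle gene for cyclin D1, went the other way, 1.29-fold lower in SH-SY5Y (adjusted p = 0.0303) and 1.44-fold higher in SH-EP2 (adjusted p = 0.00117). Both interactions passed (1.89 and -0.89, adjusted p = 4.85e-07 and 0.000332). BIRC5, which encodes survivin, was 1.29-fold lower in SH-SY5Y (adjusted p = 0.0317).

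In SH-EP2 the tight junction gene CLDN1 had log2 signals of 6.48 and 7.03 on control and of 9.46 and 9.36 on TRPM7 shRNA arrays, 6.28-fold higher (adjusted p = 9.64e-06). EPHB2, a receptor for ephrins, was 2.92-fold higher (adjusted p = 0.00410), and CD44, an adhesion receptor that the mesenchymal marker list also holds, was 1.70-fold higher (adjusted p = 0.0207). Of the target genes called in SH-EP2, 5 were higher, among them MYC, CCND1 and CD44, and only TNFRSF19 was lower. Of all genes 1.82% were called higher and 1.85% lower there. MYC, the fifth gene that rose, was 1.41-fold higher (adjusted p = 0.0441). The interaction passed for 4 of the 30 genes, TNFRSF19, CCND1, CLDN1 and MYC, beside 1.78% of all genes, and CLDN1 was detected on 0 of 4 SH-SY5Y arrays.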

How the data were processed

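Bead signals were deposited by the authors as non-normalized intensities on a linear scale with a detection p-value for every probe and array, exported with GenomeStudio 2011.1 per the submitters' processing notes. The paper's methods name RMA normalization, and for the arrays they name no statistical test behind the p-values. Here intensities were corrected with the RMA background model (98.3 to 111.1 per array), quantile normalized over 8 arrays and taken to log2. In R 4.3.3, limma 3.58.1 (with statmod 1.5.0) fitted 1 mean per group and moderated the variances along their intensity trend. P-values are two-sided and adjusted by the Benjamini-Hochberg method over 47322 probes, unfiltered. The groups come from the labelled cell line and shRNA. The procedure was tested on simulated data.

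A fold is given as "at least" where the dimmer group was undetected, against the lowest detected signal per array. Symbols were those of the files (44052 of 47322 probes), and the 56 members are all current RefSeq symbols (GRCh38.p14, also the source of the promoter letters, up to 250 bases before the start). SFRP3 is not a symbol on the array: the gene is listed there as FRZB, which the rule does not name, so it was left out. Genes named are those past an adjusted p of 0.05 in a TRPM7 shRNA comparison or interaction, WNT1, LEF1, TRPM7, the first 10 per direction between the control lines, undetected members, and up to 4 genes per other list and comparison. The members and lists were chosen with earlier results of these data known. Precision is limited by the number of arrays and, for dim probes, by the closeness of their signal to background.

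Same-numbered replicates did not deviate together (r = -0.11 in SH-SY5Y and -0.00447 in SH-EP2 over 14577 probes), so no pairing was assumed. The alternatives were other background corrections, median scaling, detection filters, other variance models, the replicate block, the mean over a gene's probes, each line alone, TRPM7 shRNA arrays in place of controls, and each array left out.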

Additional observations from a re-analysis of the deposited data

Results flagged for a closer look

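The TRPM7 shRNA effect differed between the lines by the interaction test for 3 Wnt genes. For DKK2 the log2 effect in SH-SY5Y minus the log2 effect in SH-EP2 was -4.05 (adjusted p = 9.88e-06), from -1.54 in SH-SY5Y and 2.51 in SH-EP2. For LEF1 it was 2.81 (adjusted p = 0.000107), from 0.68, which did not pass, and -2.13. For APCDD1L it was 2.15 (adjusted p = 0.00140), from 1.09 on undetected SH-SY5Y signals and -1.06. Groups of 2 arrays are too small for a test of single outlying arrays.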

How the results depend on the processing

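Of 683 values of single genes under an alternative, 583 kept their direction and their side of the threshold, 96 kept the direction and lost the call, 3 gained a call and 1 reversed. The reversal was the brighter FZD1 probe between the lines, -0.046 with TRPM7 shRNA arrays in place of control arrays, where the second FZD1 probe stayed higher in SH-EP2. The gains were LEF1 in SH-SY5Y with normexp (0.45, adjusted p = 0.00779), without background correction (0.37, adjusted p = 0.00262) and with SH-SY5Y arrays alone (0.67, adjusted p = 0.0477). In SH-SY5Y the count of 2 Wnt genes became 1 with neqc, and 0 by limma without an intensity trend and 0 by a per-probe test without eBayes (10 and 8 genes at an unadjusted p under 0.05), with 1 to 2 when single arrays were left out. In SH-EP2 the count of 8 became 4 with median scaling, 5 with the mean over a gene's probes, 1 without an intensity trend (LEF1) and 1 per probe (SFRP1), with 3 to 7 when single arrays were left out. The interaction count of 3 became 0 without an intensity trend and 0 per probe (7 and 8 at an unadjusted p under 0.05), with 3 to 4 when arrays were left out. All features called fell in these 2 models too, to 64 and 50 probes in SH-SY5Y and to 100 and 103 in SH-EP2, from 999 and 1429. For the counts at an unadjusted p under 0.05 the share of all genes was not computed. The count of 20 between the lines stayed between 17 and 22. APCDD1L in SH-SY5Y lost its call in 11 of 20 alternatives.

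With the replicate block the SH-EP2 count was 5 (FZD7, WNT4 and WNT5B lost), the SH-SY5Y count 2, the interaction count 3 and the count between the lines 19, and all probes called numbered 801, 1136 and 500 in SH-SY5Y, SH-EP2 and the interaction. Crossing the numbers in SH-SY5Y, chosen after seeing the data because they correlated at -0.11, gave 3 Wnt genes and 1420 probes in SH-SY5Y, and 3 Wnt genes and 1000 probes in the interaction.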
